A study of Mus musculus with 122 samples.

Results

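The hearts compared here came from 13 mice that had been injected on postnatal day 1 with either a catalytically inactive DdCBE pair or vehicle, and that were sacrificed at 3 weeks after injection. They were chosen by their labels and by the mouse number of their table of base counts, and they are 13 of the 122 samples of the series and 13 of the 20 neonatally injected hearts with an amplicon library. All mice were on a C57BL/6J background, and newborns of both sexes were used. The 6 hearts labelled AAV-Inactive (mice 13, 19, 21, 22, 24 and 27) had received AAV9.45, a cardiotropic vector, carrying both monomers of the pair with a dead deaminase, the split L-strand 1333C with H-strand 1333N, at 1e12 AAV particles of each monomer by the temporal vein. The 7 vehicle hearts (mice 18, 20, 23, 25, 28, 29 and 30) had received buffer without any vector, so that the comparison takes the vector, the transgene and its protein together. The vector carried a general viral promoter (CMV), and DNA was taken from whole heart tissue, so that all cell types of the heart were pooled. The 7 hearts of mice injected with the active pair in the same way are given as a description only and entered no test.

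A DdCBE joins a TALE array, which reads a DNA site, to one part of a split bacterial deaminase and to a uracil glycosylase inhibitor, and a mitochondrial targeting sequence brings it to mtDNA. When the arrays of a pair bind on either side of a short spacer, the deaminase parts meet and turn cytosine in double-stranded DNA into uracil, which replication reads as thymine. The deaminase acts mostly on cytosines that follow a thymine, so that its mark is a C-to-T change, or G-to-A where the cytosine lies on the other strand, and A:T pairs are left alone. The pair used here was aimed at MT-Nd3, which encodes a small membrane subunit of complex I, the first enzyme of the respiratory chain. The inactive pair keeps the DNA binding and the inhibitor and loses the deamination. Vehicle shows the background without the pair, which holds natural variants of mtDNA and errors of PCR and sequencing. The question was whether mtDNA of hearts that carried the inactive pair differed in any substitution from mtDNA of hearts without it.

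The target is shown first because each result below refers to it. On the mouse mitochondrial chromosome (GRCm38, RefSeq sequence), MT-Nd3 lies at positions 9459 to 9806, directly after the tRNA-Gly gene (positions 9391 to 9458). The spacer of 19 bases lies in the coding sequence at chrM:9565-9583. The capitals mark the 5 cytosines of the spacer that the study numbers by their place in it, or the bases paired with them, and both strands are written 5′ to 3′.
TALE site before the spacer, chrM:9549-9564, reference strand: tcagaaaaagcaaatc
Spacer, reference strand: catatGaatgcGGattCGa
Spacer, opposite strand: tCGaatCCgcattCatatg
TALE site after the spacer, chrM:9584-9599, reference strand: ccctacaagctctgca
C12 (position 9576) and C13 (position 9577) are the cytosines opposite the first 2 bases of codon 40, which reads GGA and encodes glycine. A change of both gives G40K, a change of C13 alone G40E and a change of C12 alone a stop (G40*) in the vertebrate mitochondrial code. C6 (position 9570) and C18 (position 9582) also lie opposite a G of the reference strand, where a change gives E38K and D42N. C17 (position 9581) is a C of the reference strand, and its change leaves codon 41 synonymous. C6, C13, C17 and C18 follow a thymine on their own strand, whereas C12 follows C13.

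The amplicon spans positions 9434 to 9607 (174 bases), of which the first 24 and the last 20 are primer sequence. A position was tested where each of the 13 hearts had at least 1000 base calls, which held for 148 positions, 55 of them C:G pairs (36 C and 19 G on the reference strand) and 93 A:T pairs. Position 9461 was left out, because the deposited tables give C as its reference base where GRCm38 has T, and 99.9 to 100% of the calls in the hearts were T. Each value is the percent of all A, C, G and T calls at a position in a heart. The tables hold nearly the same number of calls for every heart, 1173419 to 1175564 in all and a median of 8009 to 8015 per position, and at position 9434 exactly 8000 in each. The counts are therefore those kept in the tables, and the number of reads sequenced from each heart cannot be read from them. At least 99.998% of the calls at a position came from the read direction that covers it. Just inside the minimum, position 9506 had 7993 to 8007 calls and position 9532 had 4497 to 8000. Just outside it, position 9507 had 157 to 7990, with the hearts of mice 24 and 25 at 175 or fewer, and position 9531 had 363 to 780.

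The library labelled inactive from mouse 13 stood apart from the other 12 control hearts at the edited cytosines, so that the comparisons of the groups below are given with it and without it. The rounded percents that the authors deposited for the 5 cytosines tell the same, with 2% at both C12 and C13 in mouse 13 and 0% at every cytosine in each of the other 12 control hearts. The deposited percents of the active hearts at C12, 20 to 31%, lie above those of the base counts, and the text uses the base counts. The cause of its values was not tested. Within groups, 36 pairs of hearts were compared by the numbers of substituted calls along the amplicon. Vehicle mice 23 and 28 did not differ beyond sampling noise in this profile (chi-square over degrees of freedom 1.08, p = 0.249, against a p of at most 0.0176 in the other 35 pairs), but their totals of substituted calls, 6815 and 6489, differed beyond it (p = 0.0046). They were therefore counted as 2 hearts, and taking their mean as 1 heart changed no call.

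At C12, the hearts labelled inactive carried G-to-A calls at 1.30% in mouse 13, 0.536% in mouse 19, 0.399% in mouse 21, 0.262% in mouse 22, 0.212% in mouse 24 and 0.822% in mouse 27. The 7 vehicle hearts lay between 0.249 and 0.461%, with a median of 0.387%. Mice 13, 19 and 27 were above every vehicle heart, mouse 24 was below every one of them and the 2 others were among them. The group means were 0.588% ± 0.410 (SD, n = 6) and 0.383% ± 0.0715 (SD, n = 7), a difference of 0.205 percentage points with a 95% interval of -0.0934 to 0.555 (two-sided exact permutation test over the hearts, p = 0.248, adjusted p = 0.574 over the 55 C:G positions). Without mouse 13 the inactive mean was 0.446% and the difference 0.0635 points (exact permutation p = 0.585, adjusted p = 0.846). The value of mouse 13 rested on 104 of 8024 calls, which gave a 95% Wilson interval of 1.07 to 1.57%. All such intervals cover counting error only, since reads from PCR are not independent molecules.

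At C13, the neighbouring cytosine that follows a thymine, the 6 inactive hearts stood in the same order. The levels were 1.18% in mouse 13, 0.461% in mouse 19, 0.287% in mouse 21, 0.249% in mouse 22, 0.150% in mouse 24 and 0.560% in mouse 27, against 0.199 to 0.336% in vehicle hearts (median 0.237%). The same 3 mice were above every vehicle heart and mouse 24 was again below them. The inactive mean of 0.482% ± 0.375 (SD, n = 6) stood against a vehicle mean of 0.251% ± 0.0573 (SD, n = 7). The difference was 0.231 points (95% interval -0.0196 to 0.548, exact permutation p = 0.0798, adjusted p = 0.360), and 0.0904 points without mouse 13 (exact permutation p = 0.212, adjusted p = 0.686). In mouse 13, 95 of 8027 calls were substituted (Wilson interval 0.969 to 1.44%). The active hearts carried 15.2 to 25.9% at C12 and 15.1 to 25.8% at C13, so that the heart of mouse 13 lay between the other control hearts and the active hearts at both cytosines.

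**Figure D1:**
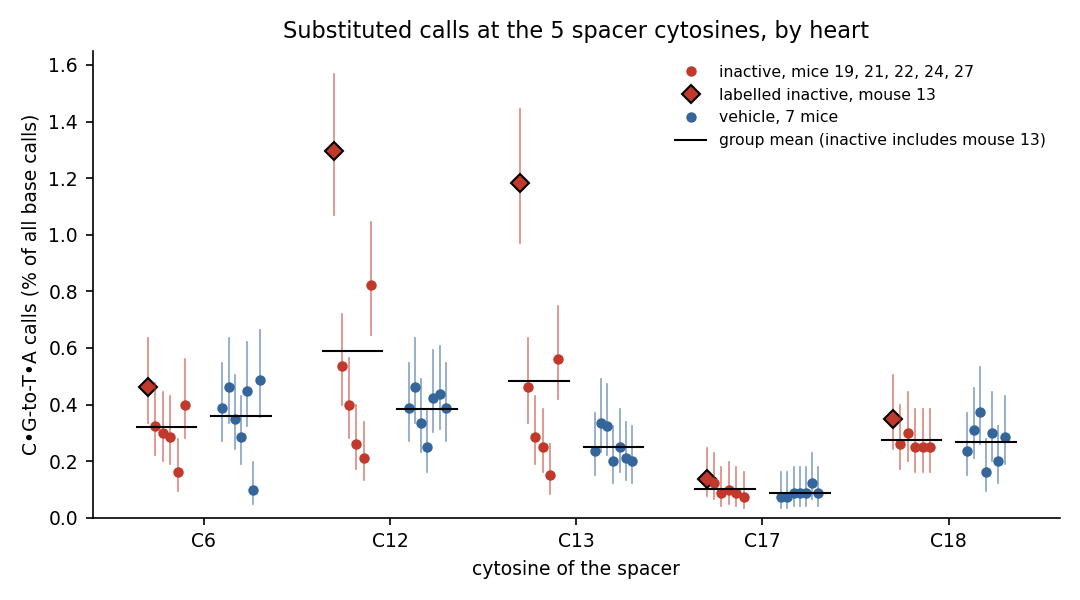
C:G-to-T:A calls (vertical axis, percent of all base calls) at the 5 spacer cytosines (horizontal axis) in each inactive (red) and vehicle (blue) heart, with 95% Wilson intervals as thin lines and group means as black bars. Mouse 13 (diamond) is at 1.30% at C12 and 1.18% at C13, above the other 12 hearts, while at C17 and C18 the groups overlap.

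The other 3 cytosines of the spacer did not separate the groups. At C6, whose change would give E38K, the inactive hearts ranged from 0.162 to 0.461% (median 0.312%) and the vehicle hearts from 0.0997 to 0.486% (median 0.386%), with a difference of -0.0376 points (exact permutation p = 0.588). It was -0.0654 points without mouse 13 (exact permutation p = 0.370, adjusted p = 0.846), and between -0.0810 points without vehicle mouse 29 and -0.00565 without inactive mouse 24 when each heart was left out. The highest heart at C6 was a vehicle heart, mouse 30, and mouse 13, at 0.461%, came after vehicle mice 30 and 20. At C17 the ranges were 0.0747 to 0.137% and 0.0747 to 0.125%, a difference of 0.0128 points (exact permutation p = 0.241, adjusted p = 0.574), or 0.00572 points without mouse 13 (exact permutation p = 0.539, adjusted p = 0.846). At C18 they were 0.249 to 0.349% and 0.162 to 0.374%, a difference of 0.00924 points, which turned to -0.00529 without mouse 13 (exact permutation p = 0.790 and 0.895). The active hearts carried 1.01 to 1.72% at C6 and lay at the level of the control hearts at C17 (0.0125 to 0.125%) and C18 (0.149 to 0.311%).

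The deposited tables also give the mean base quality of the calls of each base, on the Phred scale, on which a higher value is a call less likely to be an error. At C12, the substituted calls had a mean quality of 28 in mouse 13, 26 in mouse 19 and 24 in mouse 27, against 14 to 20 in the vehicle hearts and 14 to 19 in the hearts of mice 21, 22 and 24. At C13, the same 3 mice had 30, 24 and 27, against 12 to 18 in the vehicle hearts and 13 to 18 in the other inactive hearts. The 3 hearts with the highest levels at both cytosines were therefore also the 3 with the highest quality of substituted calls. Calls of the reference base had 34 to 36 at both cytosines in the control hearts, and the substituted calls of the active hearts had 35 to 36. At C6 the quality was 11 to 15 in all 13 control hearts and 26 to 31 in the active hearts. At C17, where each control heart had 6 to 11 substituted calls, it was 19 to 29 in inactive and 18 to 25 in vehicle hearts. The highest there was mouse 24, so that a high quality also occurred at a background level. At C18 it was 12 to 16 in both groups. The quality is 1 rounded mean per heart and base, and no test was made on it.

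**Figure D2:**
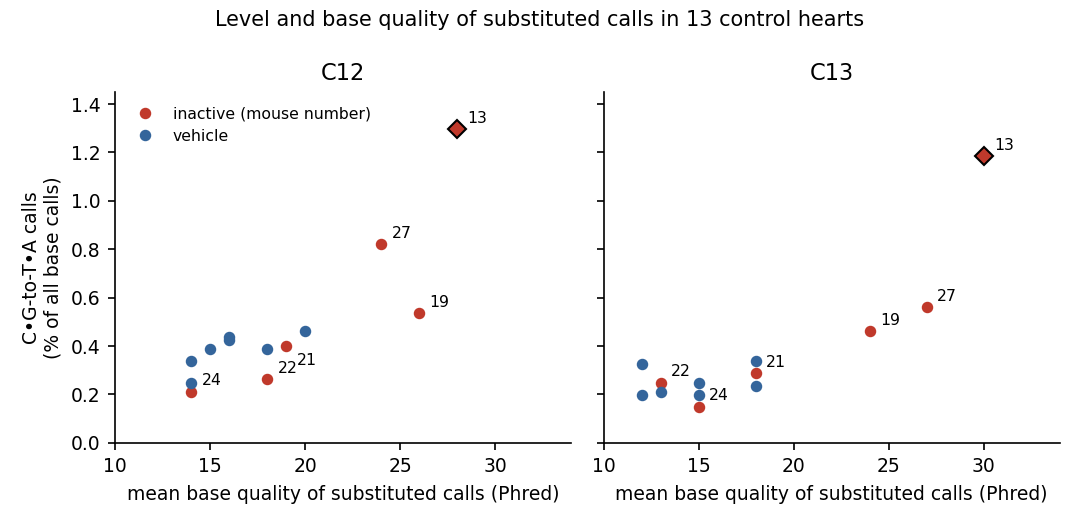
C:G-to-T:A calls (vertical axis, percent of all base calls) against the mean base quality of those calls (horizontal axis, Phred) at C12 and C13, with 1 point per control heart and the mouse number beside each inactive heart. Mice 13, 19 and 27 lie to the right of and above the 7 vehicle hearts in both panels, and mice 21, 22 and 24 lie among or below them.

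The calls of the other bases at the same positions were not tested one by one, and their ranges overlapped. At C12, G-to-T calls were 0.150 to 0.262% in inactive and 0.112 to 0.324% in vehicle hearts, and G-to-C calls were at most 0.0499% in inactive and 0.0249% in vehicle hearts, a few calls per heart. At C13, G-to-T calls were 0.125 to 0.336% and 0.137 to 0.411%. Mouse 13 lay inside the vehicle range of G-to-T calls at both, with 0.224% at C12 and 0.311% at C13.

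Over the amplicon, C:G-to-T:A calls averaged 0.137% ± 0.0222 (SD, n = 6) per C:G position in inactive hearts and 0.126% ± 0.0131 (SD, n = 7) in vehicle hearts. The inactive hearts lay at 0.171, 0.133, 0.130, 0.126, 0.108 and 0.154% (mice 13, 19, 21, 22, 24 and 27), and the vehicle hearts between 0.0994 and 0.139% (median 0.131%). Mice 13 and 27 were above every vehicle heart, and the other 4 inactive hearts were among them. The difference was 0.0112 points (95% interval -0.0101 to 0.0332, exact permutation p = 0.287, adjusted p = 0.607 over 8 summaries of the amplicon), and 0.00439 points without mouse 13 (interval -0.0137 to 0.0240, exact permutation p = 0.625, adjusted p = 0.848). Split by strand, C-to-T calls at reference C averaged 0.120% against 0.119%, a difference of 0.00156 points (exact permutation p = 0.807), or 0.000884 without mouse 13 (exact permutation p = 0.903). G-to-A calls at reference G, the strand with C12 and C13, averaged 0.168% ± 0.0516 (SD, n = 6) against 0.139% ± 0.0179 (SD, n = 7), a difference of 0.0294 points with mouse 13 (interval -0.0108 to 0.0751, exact permutation p = 0.181, adjusted p = 0.607) and 0.0110 without it (exact permutation p = 0.424). All these means include primer bases, which come from the synthetic oligonucleotide. Over the 35 C:G positions between the primers, with primer bases left out, the means were 0.119% in inactive and 0.0959% in vehicle hearts. That difference was 0.0236 points, or 0.0104 without mouse 13. Mouse 13 at 0.185%, mouse 27 at 0.133% and, narrowly, mouse 19 at 0.1113% were above the vehicle range of 0.0813 to 0.1106%.

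The 8 C:G positions of the spacer averaged 0.254% ± 0.122 (SD, n = 6) in inactive and 0.199% ± 0.0271 (SD, n = 7) in vehicle hearts. Mouse 13 was at 0.470%, mouse 27 at 0.305% and mouse 19 at 0.248%, above the vehicle range of 0.157 to 0.231%, and mouse 24 at 0.136% was below it. The difference of 0.0559 points (interval -0.0334 to 0.161, exact permutation p = 0.284, adjusted p = 0.607) fell to 0.0128 points without mouse 13 (exact permutation p = 0.670). The 3 spacer C:G positions other than the 5 cytosines averaged 0.0887 and 0.0796%. At the 47 C:G positions outside the spacer the group means were 0.117 and 0.113%, and mouse 13 at 0.120% lay inside the vehicle range of 0.0874 to 0.124% (difference 0.00356 points, exact permutation p = 0.608, or 0.00296 points without mouse 13, exact permutation p = 0.703). Of these 47, 20 lie in the primers and cannot carry a change of the heart. At these 20, mouse 13 averaged 0.146%, below the vehicle median of 0.185%. Its mean of 0.120% therefore does not show whether mouse 13 lay among the vehicle hearts outside both the spacer and the primers. In the TALE site before the spacer (5 C:G positions), mouse 13 at 0.188% and mouse 21 at 0.143% were above the vehicle range of 0.0729 to 0.131%. The other inactive hearts were inside it.

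Cytosines that follow a thymine, the preferred context of the deaminase, had higher levels than other cytosines in both groups. With primers left out, the 11 cytosines after T averaged 0.192% in inactive and 0.152% in vehicle hearts, and the 24 others 0.0863 and 0.0702%. The difference between the contexts, taken in each heart, was 0.196 points in mouse 13, 0.0566 to 0.109 points in the other inactive hearts and 0.0345 to 0.120 points in vehicle hearts. Mouse 13 alone lay above the vehicle range. The group means of this difference were 0.105 and 0.0816 points (exact permutation p = 0.334, adjusted p = 0.607), and 0.0871 against 0.0816 without mouse 13 (exact permutation p = 0.742, adjusted p = 0.848).

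Tested position by position, 0 of the 55 C:G positions (0%) differed between inactive and vehicle hearts at an adjusted p under 0.05, with mouse 13 or without it (exact permutation test with Benjamini-Hochberg adjustment). At an unadjusted p under 0.05 there were 5 (9.09%) with mouse 13, of which 4 (7.27%) were higher in inactive hearts, and 4 (7.27%) without it, of which 3 (5.45%) were higher. A single position can reach an adjusted p of 0.0321 in this design with mouse 13 but only 0.0694 without it, so that without mouse 13 a lone position could not have passed. On simulated calls of the same size, the test recovered 93% of positions changed 4-fold and 30.5% of those changed 2-fold, so that a 2-fold change was mostly missed. There several positions were raised at once and alike in all inactive hearts. The simulated hearts also varied less than the inactive hearts did at C12 and C13. These shares therefore do not hold for a change at a lone position or in some of the hearts only. The inactive mean was the higher at 37 positions and the lower at 18, in both cases, and the median difference was 0.00683 points with mouse 13 and 0.00669 without it. At 47 of the 55 positions the means differed by less than 0.05 points.

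**Figure D3:**
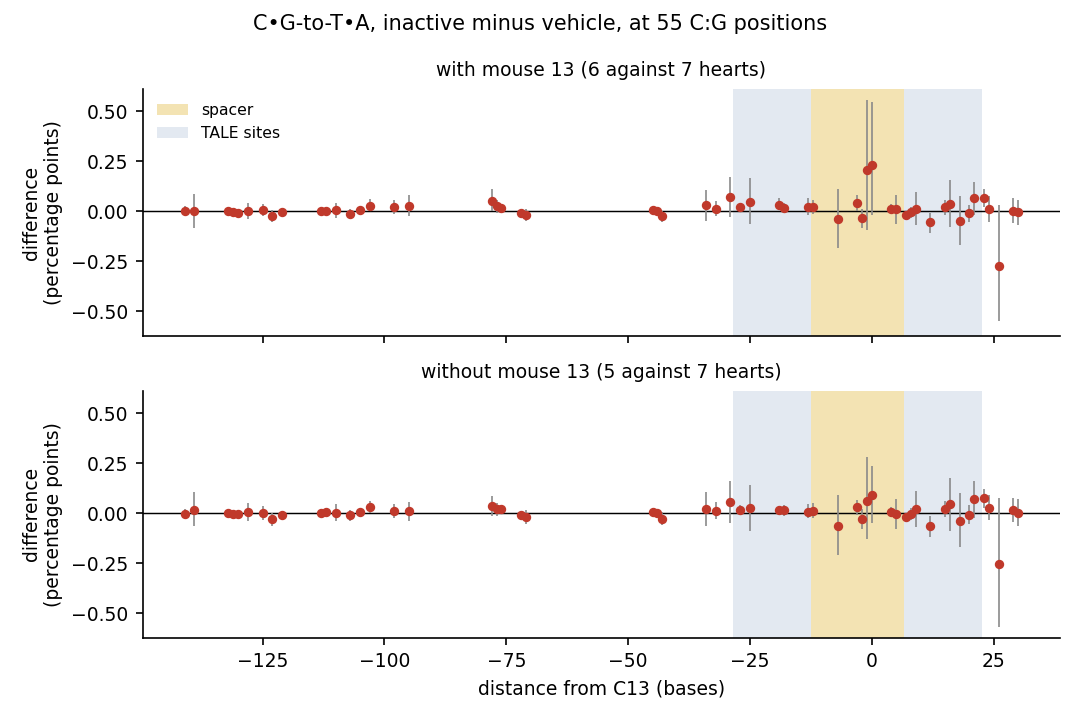
Difference of the mean level of C:G-to-T:A calls, inactive minus vehicle (vertical axis, percentage points), at each of the 55 C:G positions against its distance from C13 (horizontal axis, bases), with 95% intervals from the exact permutation test as grey lines. With mouse 13 (upper panel), C12 and C13 stand at 0.205 and 0.231 points, and without it (lower panel) at 0.0635 and 0.0904.

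The smallest p belonged to position 9558, a G in the TALE site before the spacer, 19 bases before C13. It is shown with its flanks because mouse 13 stood out there as well, with the base in capitals.
Position 9558 and 6 bases on each side, reference strand: gaaaaaGcaaatc
The inactive hearts carried 0.162% in mouse 13 and 0.0624 to 0.0874% in the 5 others, and the vehicle hearts 0.0374 to 0.0748%. Mice 13, 19, 22, 24 and 27 were above every vehicle heart, mice 22 and 24 by less than the value of a single call. The inactive mean was 0.0915% ± 0.0358 (SD, n = 6) and the vehicle mean 0.0588% ± 0.0139 (SD, n = 7), a difference of 0.0327 points (exact permutation p = 0.0105, adjusted p = 0.304), and 0.0186 points without mouse 13 (exact permutation p = 0.0278, adjusted p = 0.503). The active hearts lay at 0.0374 to 0.0749%, the level of the vehicle hearts.

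Position 9600, in the reverse primer 23 bases after C13, had the next smallest p, and the smallest without mouse 13. Inactive hearts carried 0.190 to 0.308% (median 0.258%) and vehicle hearts 0.154 to 0.238% (median 0.169%), and here mouse 13 was the lowest inactive heart. The difference was 0.0667 points (exact permutation p = 0.0111, adjusted p = 0.304), and 0.0776 without mouse 13 (exact permutation p = 0.00253, adjusted p = 0.139). Bases in the primers come from the synthetic oligonucleotide and not from the heart. Position 9589, also in that primer, went the other way, at 0.104% in inactive and 0.159% in vehicle hearts (exact permutation p = 0.0291, adjusted p = 0.353, and p = 0.0215, adjusted p = 0.503 without mouse 13).

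Inside the amplicon, position 9501 had 0.0125 to 0.0375% in inactive hearts and at most 0.0374% in vehicle hearts, 3 of which had no such call among at least 8007, which allows up to 0.0375% (exact permutation p = 0.0385, adjusted p = 0.353, and p = 0.0366, adjusted p = 0.503 without mouse 13). Position 9574, in the spacer 3 bases before C13, had 0.0374 to 0.137% in inactive hearts and up to 0.0748% in vehicle hearts, with 1 vehicle heart at 0, which allows up to 0.0374% (exact permutation p = 0.0402, adjusted p = 0.353, and p = 0.0783 without mouse 13). Both values are a few calls per heart. At the other C:G positions chosen for their small p, with mouse 13 or without it, the differences were between -0.0256 points at position 9534 and 0.0532 points at position 9499, with adjusted p of 0.353 to 0.428 with mouse 13. The positions with the highest background in vehicle hearts were 9603, at 1.12% ± 0.299 (SD, n = 7), and 9595, at 0.487%, both in the reverse primer, followed by C12, C6 and position 9552, a G in the TALE site before the spacer at 0.358%. At position 9603 inactive hearts were at 0.849% ± 0.150 (SD, n = 6), a difference of -0.271 points (exact permutation p = 0.0705, adjusted p = 0.353), or -0.256 without mouse 13 (exact permutation p = 0.116, adjusted p = 0.561).

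To place the values of mouse 13, the C:G positions were taken at which every active heart lay above every control heart, which held for 12 of the 55. They were chosen by values that include those of the 13 hearts, so that no test was made on them. They comprise C12, C13, C6 and position 9574 in the spacer, 3 positions in the TALE site before it and 5 others farther upstream, and 9 of the 12 are cytosines after a thymine. The pair of upstream positions with the highest levels in active hearts is shown, with the cytosine in capitals.
Position 9499, 78 bases before C13, reference strand: tattatCcctaac
Position 9482, 95 bases before C13, reference strand: tatcttCattaat
Position 9499 carried 3.23 to 4.88% in active hearts, 0.187% in mouse 13, 0.162% in mouse 19, 0.125% in mouse 27 and 0.0499 to 0.0749% in mice 21, 22 and 24, against 0.0125 to 0.112% in vehicle hearts. The mice above every vehicle heart were 13, 19 and 27, as at C12 and C13. Position 9482 carried 2.43 to 3.94% in active hearts and 0.187% in mouse 13, and the other 12 control hearts lay between 0.0125 and 0.137%.

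Mouse 13 was the highest of the 13 control hearts at 9 of these 12 positions, and above every vehicle heart at 9. Mice 19 and 27 were above every vehicle heart at 5 each, mouse 21 at 4, mouse 24 at 1 and mouse 22 at 0. At position 9500, mice 13 and 19 had as many substituted calls as vehicle mouse 28, and only the totals of calls differed. The same held for mouse 21 and a vehicle heart at positions 9479 and 9550. Such ties were kept in all these counts. At the other 43 C:G positions, mouse 13 was above every vehicle heart at 5, mouse 19 at 8, mouse 21 at 4, mouse 22 at 9, mouse 24 at 9 and mouse 27 at 7. The mean over the 12 positions was 0.378% in mouse 13, 0.231% in mouse 27, 0.194% in mouse 19, 0.172% in mouse 21, 0.139% in mouse 22 and 0.111% in mouse 24, against 0.101 to 0.183% in vehicle hearts (median 0.146%) and 3.44 to 5.76% in active hearts. This mean includes C12 and C13, which weigh most in it and where mice 13, 19 and 27 lay above every vehicle heart. It was not taken without them, so that it does not show a rise of mice 19 and 27 at the rest of the 12. Over the other 43 C:G positions mouse 13 was at 0.113%, inside the vehicle range of 0.0923 to 0.127%, and the active hearts at 0.0928 to 0.120% were at the same level. Over all 55 C:G positions, mouse 13 alone had the highest percent at 13, where each of the other hearts did so at 1 to 6. At positions 9456, 9500 and 9565 among the 13, another control heart had the same number of substituted calls. Mouse 13 thus stood above the other control hearts in the mean over positions that were raised in active hearts. The mean over the others rests in part on the 20 primer positions, where mouse 13, at 0.146%, was below the vehicle median of 0.185%. That mean was not taken without the primers. The value of 0.113% therefore does not show whether mouse 13 stood apart at the others, or that its rise was confined to the 12. Single positions among the others, such as 9558, were also highest in mouse 13. The cause was not tested.

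**Figure D4:**
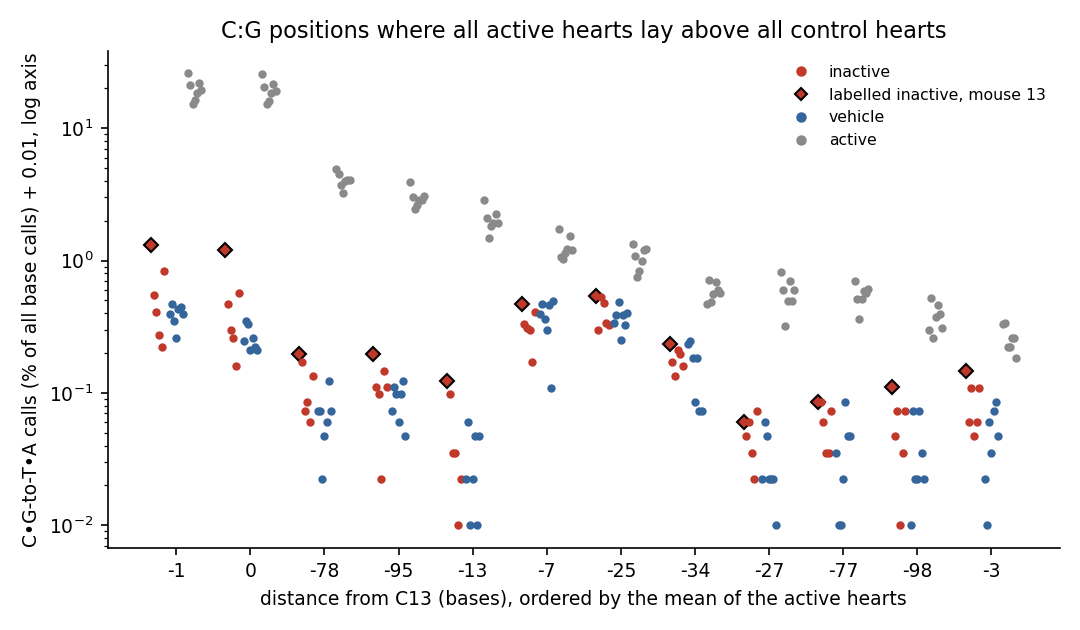
C:G-to-T:A calls (vertical axis, percent of all base calls plus 0.01, log scale) in each inactive (red), vehicle (blue) and active (grey) heart at the 12 C:G positions where every active heart lay above every control heart, ordered by the mean of the active hearts and named by their distance from C13 (horizontal axis, bases). Mouse 13 (diamond) is the highest control heart at 9 of the 12 positions, at 1.30% at C12 (distance -1) and 0.187% at distance -78. At distance -77 it is so only by its total of calls.

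Substitutions that the deaminase does not make were used as a further background. All calls other than C:G-to-T:A averaged 0.450% ± 0.0416 (SD, n = 6) per position in inactive and 0.469% ± 0.0540 (SD, n = 7) in vehicle hearts, a difference of -0.0185 points (interval -0.0766 to 0.0428, exact permutation p = 0.503, adjusted p = 0.671). Mouse 13, at 0.431%, was inside the vehicle range of 0.367 to 0.533%. The reverse transition, A:T to G:C, averaged 0.0812 and 0.0864%, a difference of -0.00523 points (exact permutation p = 0.379, adjusted p = 0.607). These differences were -0.0147 and -0.00508 points without mouse 13 (exact permutation p = 0.625 and 0.432). For the summed other substitutions, 0 of 148 positions (0%) passed an adjusted p of 0.05 with mouse 13 or without it, and 3 positions (2.03%) had an unadjusted p under 0.05 in each case (exact permutation test), all 3 (2.03%) higher in inactive hearts with mouse 13 and 2 (1.35%) higher without it. With mouse 13 these were positions 9480, 9564 and 9442, higher in inactive hearts by 0.0416, 0.0378 and 0.0230 points (exact permutation p = 0.0146, 0.0175 and 0.0326, adjusted p = 0.984 each), and by 0.0449, 0.0307 and 0.0200 points without it (exact permutation p = 0.0253, 0.0341 and 0.0543). Position 9480 lies in MT-Nd3 97 bases before C13, position 9564 is the last base of the TALE site before the spacer and position 9442 is in the forward primer in the tRNA-Gly gene. A single position could not have passed here, since the smallest adjusted p that 1 of 148 positions can reach is 0.0862.

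Of the 12 substitution types, 0 (0%) differed between the groups at an adjusted or an unadjusted p under 0.05, with mouse 13 or without it (exact permutation test). With mouse 13, the largest ratio of inactive to vehicle was that of G-to-A, at 1.21, which was 1.08 without it. G-to-C followed at 1.12, at 0.0442% against 0.0393% (exact permutation p = 0.196, adjusted p = 0.794). C-to-T, the deaminase's mark on the other strand, had a ratio of 1.01. The most frequent type was A-to-C, at 0.331% in inactive and 0.352% in vehicle hearts, followed by T-to-A at 0.281 and 0.289%. Mouse 13 was above every other control heart in G-to-A, at 0.260%, and among the vehicle hearts in C-to-T, at 0.124%. Inserted and deleted bases, outside the primers, were 0.0140 to 0.0216% of calls in inactive and 0.0125 to 0.0233% in vehicle hearts.

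**Figure D5:**
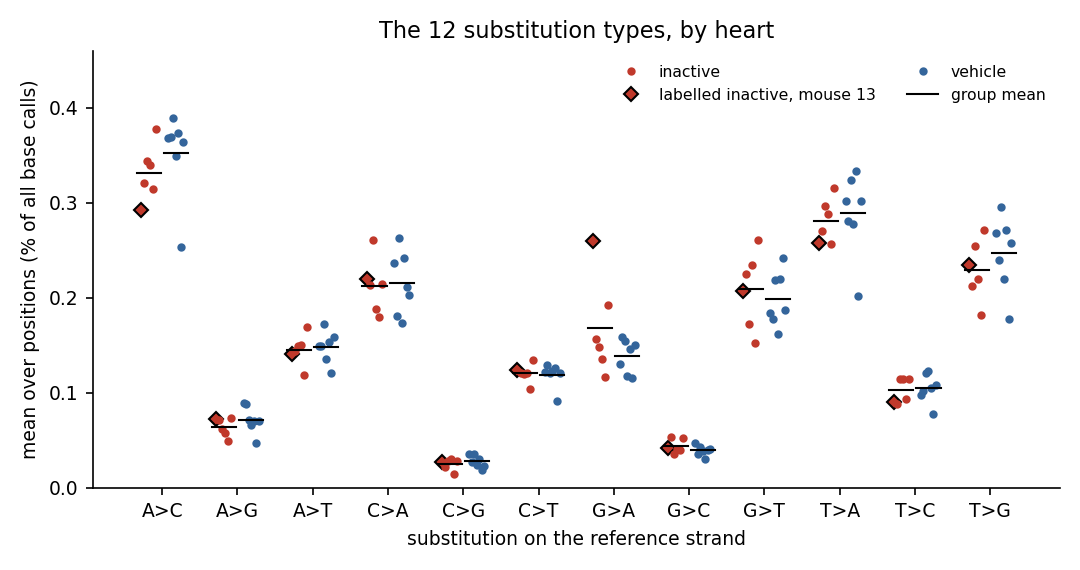
Mean percent of each of the 12 substitution types on the reference strand (vertical axis, percent of all base calls, horizontal axis, type) in inactive (red) and vehicle (blue) hearts, with group means as black bars. The groups overlap in every type, and mouse 13 (diamond) is the highest heart in G-to-A at 0.260%.

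The whole mtDNA was sequenced from 3 inactive hearts (mice 19, 21 and 22) and 3 vehicle hearts (mice 18, 20 and 23) of the same groups, and mouse 13 was not among them. The deposited off-target frequency, the mean of C:G-to-T:A calls over the C:G sites of mtDNA in percent, was 0.0413, 0.0291 and 0.0298% in the inactive hearts and 0.0331, 0.0331 and 0.0317% in the vehicle hearts, at a mean of 3965 to 4897 reads per position. Mouse 19 was the highest and mouse 21 the lowest of the 6. The means of 0.0334% ± 0.00685 (SD, n = 3) and 0.0326% ± 0.000800 (SD, n = 3) differed by 0.000729 points (exact permutation p = 1, where 3 against 3 hearts cannot go below 0.1). Without mouse 19 the difference turned to -0.00322 points (exact permutation p = 0.1, the smallest that 2 against 3 hearts can give). The active hearts lay at 0.615 to 1.29%. At nuclear copies of mtDNA (NUMTs), which a mitochondrial editor should not reach, the deposited values were 0 at all 5 cytosines on chromosome 1 and both cytosines on chromosome 14 in the same 6 hearts, and also in the active hearts. The tables give no depth for them, so that no limit can be set.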

How the data were processed

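Genomic DNA of whole hearts was amplified by long-range PCR and then over MT-Nd3 and sequenced in paired reads. Per the labels and the methods, the authors used Trim Galore for trimming and Bowtie2 for alignment to the mitochondrial chromosome of GRCm38, and tallied base calls of a mapping quality from 30 up with SAMtools mpileup and VarScan (tool versions: not given in the sources used here). They deposited raw counts of base calls per position, base and strand, with no normalization and a depth near 8000 in every heart. The authors also deposited a score of mean base quality per base, percents at the cytosines rounded to whole numbers, and, from REDItools2.0, an mtDNA-wide percent with its mean coverage in reads. The NUMT tables, other deposited values, give neither unit nor depth. Tables of cultures and adult hearts were not used.

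Samples were grouped by their labels, which number separate mice. Percents per heart were compared by a two-sided exact permutation test of the difference of means over all 1716 splits (792 without mouse 13), with smallest p of 0.000583 and 0.00126. The test treats the hearts as exchangeable. P-values were adjusted by Benjamini-Hochberg over the 8 summaries, 55 C:G positions, 148 positions or 12 types, with a threshold of 0.05, and 95% intervals were obtained by inverting the test. The methods name an analysis of variance, in place of which the exact test was used because the groups are small. Shares of single hearts have 95% Wilson intervals, and a count of 0 allows up to 3 calls. Sequences and genes are from RefSeq (GRCm38). Scripts ran under Python 3.11.15 with SciPy 1.17.1, NumPy 2.4.6 and matplotlib 3.10.9. Named positions are the 5 cytosines, those with the smallest p with and without mouse 13 (10 C:G, 5 other), the 5 highest in vehicle hearts, the 5 where mouse 13 lay farthest above the other hearts and those at the call minimum. The 12 positions raised in active hearts were named after their values were seen. Members, lists and tests were chosen with earlier results of these data known. The test was checked on simulated data (20 draws of 55 positions for each size of change). There was 1 false call among 1100 positions where none was changed. Among 900 unchanged positions there were 2 false calls beside 2-fold changes and 5 beside 4-fold changes. The alternatives comprised other call minimums (100, 8000), strands, denominators, scales, primers left out, pooled calls, Fisher's exact test, a quasi-binomial model and leaving out each heart. Counting vehicle mice 23 and 28 as 1 heart was added after the data were seen.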

Additional observations from a re-analysis of the deposited data

Results flagged for a closer look

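In 92 group values examined, the highest or lowest heart lay far from the rest of its group in 10. For a single value, chance alone gives about 1 in 20. Many of the 92 share calls and hearts, so that the 10 cannot be set against this rate. Vehicle mouse 29 was the lowest vehicle heart in 5 of the 10. Its mean of A:T-to-G:C calls was 0.0607%, against 0.0859 to 0.0939% in the other 6 vehicle hearts, and its mean of C:G-to-T:A calls outside the spacer was 0.0874%, against 0.113 to 0.124%. By substitution type it was at 0.253% for A-to-C (others 0.349 to 0.389%), 0.0911% for C-to-T (others 0.120 to 0.129%) and 0.202% for T-to-A (others 0.278 to 0.333%). The same heart was the highest vehicle heart at C17, with 0.125% (others 0.0747 to 0.0872%), and at position 9600 in the reverse primer, with 0.238% (others 0.154 to 0.182%). Mouse 29 thus had fewer substituted calls of several kinds than the other vehicle hearts, and leaving it out changed no call, although it turned the direction of 3 small differences.

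Among the inactive hearts, mouse 13 stood apart at position 9558 in the TALE site before the spacer, with 0.162% against 0.0624 to 0.0874% in the other 5. At C12 and C13 its values of 1.30 and 1.18% were the highest, but mouse 27 lay close enough that the gap did not pass this criterion. Vehicle mouse 23 was the highest vehicle heart at position 9501, with 0.0374% against at most 0.0125% in the other 6. Vehicle mouse 20 was the highest at position 9589 in the reverse primer, with 0.249% against 0.112 to 0.162%.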

How the results depend on the processing

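Of 390 alternative values over 19 results, 374 kept their direction or their size, and of the 317 that are differences with an adjusted p, 0 were under 0.05. The others are counts of calls, which stayed 0 except under Fisher's test below. No paired analysis was possible because inactive and vehicle hearts share no mouse number. Leaving out each heart in turn, the number of positions and types called stayed 0, and the difference of means ranged from 0.00439 to 0.0169 points for C:G-to-T:A calls, from 0.0635 to 0.280 at C12 and from 0.0904 to 0.297 at C13, the lowest without mouse 13 each time. The direction turned for C18 (-0.00827 to 0.0270 points, below 0 without mouse 13, 25 or 29), C-to-T at reference C (-0.00308 to 0.00485, below 0 without mouse 27 or 29), C:G positions outside the spacer (-0.000776 to 0.00619, below 0 without mouse 29) and the mtDNA-wide percent (-0.00322 to 0.00289, below 0 without mouse 19). It also turned for A:T-to-G:C calls with a minimum of 100 calls (0.00979 points), for other substitutions by the median over positions (0.00899) and on forward-strand calls (0.00423), for the spacer by the median over positions (-0.000885), for the TC difference with primers kept (-0.00765), for C-to-T at reference C on reverse-strand calls (-0.00333) and for G-to-A on forward-strand calls (-0.000523). The cause was not tested. Fisher's exact test on pooled calls, which takes calls rather than hearts as the unit, called 4 C:G positions (9499, C12 and C13 higher in inactive hearts, 9603 lower) and 3 for other substitutions (9465 higher, 9591 and 9605 lower, named after their values were seen). The mean over the spacer from forward-strand calls was not run. Depth near 8000 calls limits single positions to changes of a few calls.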
